A study of Mustela putorius furo and Mus musculus with 4 samples.

Results

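The genes that release calcium from the endoplasmic reticulum and refill it were compared between cultured ferret and cultured mouse astrocytes. The set held 10 genes, chosen by symbol from 13373 symbols measured in both species: the inositol trisphosphate (IP3) receptors Itpr1, Itpr2 and Itpr3, the ryanodine receptor Ryr3, the calcium pumps Atp2a2 and Atp2a3, the store sensors Stim1 and Stim2, and the entry channels Orai1 and Orai2. Each of the 10 symbols had 1 value per library.

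Astrocytes are not electrically excitable, and calcium signals are a main way in which they respond to neurotransmitters. Receptors coupled to Gq proteins activate phospholipase C, which makes IP3, and IP3 opens its receptors in the membrane of the endoplasmic reticulum. SERCA pumps return calcium to the store. When the store empties, STIM proteins in its membrane sense the loss and open ORAI channels in the plasma membrane, so that calcium enters from outside and the store can refill.

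The data came from 4 libraries, 2 of ferret and 2 of mouse astrocytes, named replicates 1 and 2 in each species. All were primary astrocytes of the cerebral cortex, from ferrets at postnatal day 1 and from ICR mice at postnatal days 1 to 3. They were grown as mixed glia with serum for 14 days, shaken, replated, and kept without serum before harvest. No genetic change or treatment distinguished the groups. The glia of 1 ferret pup filled several flasks whereas several mouse pups were pooled in a flask, and no source used here states that the duplicates were separate cultures, so that the p-values measure the spread between libraries, which may be technical. The study also imaged calcium in ferret astrocytes given glutamate and ATP. Those cells were other cultures, kept in serum, and the imaging was not analysed here.

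Expression was given as FPKM, a fragment number divided by exon length and by the mapped fragments of the library. FPKM holds no read counts. Among the lowest values, the most frequent ratio of replicate 1 to replicate 2 was 0.85 in the ferret, held by 19.4% of them. In the mouse it was 1.2, held by 10.4%. If these ratios reflect single reads, ferret replicate 1 and mouse replicate 2 were the deeper libraries of their pairs. The shared symbols summed to between 227391 and 236543 FPKM in the ferret and between 300465 and 308121 FPKM in the mouse libraries. The species were compared on the log2(FPKM + 1) scale with limma, a scale that shrinks the differences of weakly expressed genes. Gene model, culture and species changed together between the groups and cannot be told apart. The exon length behind the ferret FPKM was longer than the mouse one for Orai1 and shorter for Atp2a2 and Itpr3. The lengths of the other 7 ferret genes were not used here. FPKM is divided by this length, so a gene model that is too long or too short would shift it. As given below, Orai1 was lower and Itpr3 higher in ferret astrocytes, and Atp2a2 was similar as deposited. The part of exon length in these differences was not tested.

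The cultures also differed in markers of other cells. All 17 tested microglial markers were called lower in ferret astrocytes by the rule given below, with a summed level of 11.7 to 13.1 FPKM in the ferret and 936 to 958 FPKM in the mouse libraries, and Cx3cr1 was listed at 0 in both ferret libraries. Of 10 fibroblast markers, 9 were called lower (163 to 184 against 2037 to 2093 FPKM in sum). Of 5 tested endothelial and mural markers, 3 were called lower and 1 higher (34.6 to 37.8 against 252 to 270 FPKM), with Pecam1, Cdh5, Tek and Rgs5 at 0 in the ferret and Cldn5 at 0 in the mouse libraries. Of 7 tested oligodendrocyte lineage markers, 3 were called higher and 0 lower (166 to 185 against 67.4 to 67.7 FPKM). Of 4 tested neuronal markers, 3 were called higher, Syt1, Gad1 and Dcx, with ferret means of 5.02, 1.93 and 1.46 FPKM. The sum of the 7 shared neuronal markers went the other way (28.1 to 28.2 against 32.4 to 33.6 FPKM). Its largest part was Map2, which was not called, with means of 18.9 FPKM in ferret and 30.8 FPKM in mouse astrocytes. Of 11 astrocyte markers, 1 was called higher and 7 lower (4704 to 4898 against 10273 to 11054 FPKM), and Gfap had 1481 and 1522 FPKM in ferret and 1429 and 1546 FPKM in mouse astrocytes. By the same rule, 13.1% of all genes tested were called higher and 30.1% lower in ferret astrocytes. Fewer cells of a type and less RNA per cell cannot be told apart in such bulk libraries. The part of these other cells in the differences of store genes was not tested.

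The species carried the same families in different make-up. Ferret astrocytes had more Itpr3 and Orai2 and less Itpr1, Orai1 and Stim2 than mouse astrocytes, by between 3.07 and 6.09 times in mean FPKM. The main store pump, Atp2a2, and the sensor Stim1 stood at nearly the same FPKM in both species. A gene was called where the Benjamini-Hochberg adjusted p of limma was under 0.05 and the absolute log2 difference above 1. Of the 8 store genes whose mean reached 1 FPKM in either species or both, 2 were called higher and 3 lower in ferret astrocytes, and 3 were not called. Over all 10204 genes tested, 43.2% were called, with 13.1% called higher and 30.1% called lower in ferret astrocytes. The adjusted p alone was under 0.05 for 7 of the 8 store genes, against 88.6% of all genes. The libraries of the species did not overlap for 7 of the 8, against 94.1% of all genes. The median log2 difference was -0.35 both for the 8 store genes and for all genes, while the median absolute log2 difference was 1.45 for the store genes and 0.85 for all genes.

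**Figure D1:**
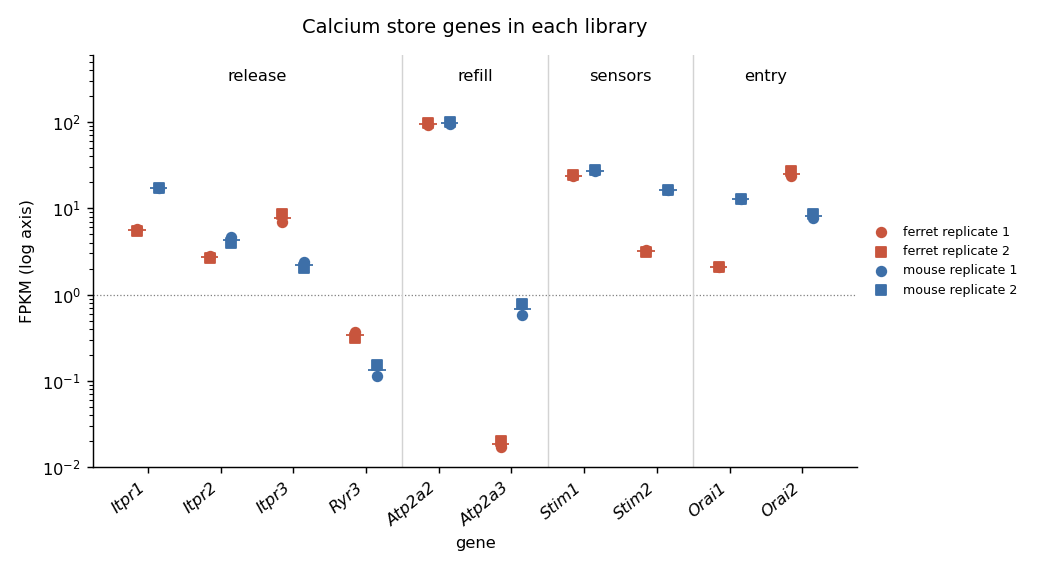
FPKM of the 10 calcium store genes on a log axis in each of the 4 libraries, with ferret replicates in red, mouse replicates in blue and a short line at each species mean. The dotted line marks 1 FPKM. Atp2a2 sits near 100 in every library, Itpr1, Stim2 and Orai1 lie lower in ferret and Itpr3 and Orai2 lower in mouse astrocytes, and Ryr3 and Atp2a3 stay under 1 in all libraries.

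Reads of related genes could be assigned to the wrong member where their sequences are identical. The longest stretches that mouse pumps, IP3 receptors and ORAI channels share letter for letter within their coding sequences are therefore shown, from the GENCODE M21 transcripts on GRCm38. Each line gives the coding strand 5′ to 3′, with the shared stretch in capitals and up to 12 flanking bases in lower case. The pumps shared 44 bases, in exon 15 of both genes, at chr5:122460000-122460043 on the minus strand for Atp2a2 and at chr11:72981881-72981924 on the plus strand for Atp2a3.
Atp2a2: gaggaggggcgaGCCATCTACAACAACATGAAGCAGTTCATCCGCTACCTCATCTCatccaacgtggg
Atp2a3: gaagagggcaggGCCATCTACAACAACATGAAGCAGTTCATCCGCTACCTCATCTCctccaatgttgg
Itpr1 and Itpr3, which differed between the species in opposite directions, shared 29 bases, in exon 46 of Itpr1 at chr6:108473610-108473638 and in exon 41 of Itpr3 at chr17:27113875-27113903, both on the plus strand.
Itpr1: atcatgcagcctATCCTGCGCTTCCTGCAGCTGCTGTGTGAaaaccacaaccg
Itpr3: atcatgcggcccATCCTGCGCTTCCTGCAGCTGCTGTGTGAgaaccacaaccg
Orai1 and Orai2, which also differed in opposite directions, shared 18 bases, in exon 2 of Orai1 at chr5:123029283-123029300 on the plus strand and in exon 5 of Orai2 at chr5:136150727-136150744 on the minus strand.
Orai1: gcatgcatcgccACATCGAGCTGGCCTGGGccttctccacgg
Orai2: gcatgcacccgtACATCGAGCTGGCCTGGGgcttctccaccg
The other IP3 receptor pairs shared 28 bases (Itpr1 and Itpr2) and 32 bases (Itpr2 and Itpr3). All of these stretches were shorter than 1 sequenced read of the study. Ferret sequences and untranslated regions were not compared here, and how reads were assigned between family members was not examined.

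The release channels differed in which IP3 receptor was most abundant. Itpr1 encodes the receptor type that is most abundant in neurons of the cerebellum, and its mouse gene lies at chr6:108213096-108551109 on the plus strand. Itpr1 had 5.76 and 5.51 FPKM in ferret replicates 1 and 2, and 17.4 and 17.2 FPKM in mouse replicates 1 and 2. Both mouse libraries were about 3 times as high as both ferret libraries, and the duplicates differed little. Ferret minus mouse, the log2 difference was -1.46 (SE 0.067, limma adjusted p = 1.60e-08).

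Itpr3 encodes the receptor type known from secretory and other non-neuronal cells, and its mouse gene lies at chr17:27057304-27122223 on the plus strand. Itpr3 had 6.99 and 8.50 FPKM in ferret replicates 1 and 2, against 2.36 and 2.06 FPKM in the mouse replicates. Ferret astrocytes were higher in each library, the reverse of Itpr1, by 3.50 times in the means and by 2.96 times between the closest libraries of the species. The log2 difference was 1.44 (SE 0.098, limma adjusted p = 3.12e-07).

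Itpr2 encodes the receptor type through which astrocytes of the rodent brain are known to release most of their somatic calcium, and its mouse gene lies at chr6:146108299-146502223 on the minus strand. Itpr2 had 2.79 and 2.62 FPKM in ferret replicates 1 and 2, against 4.64 and 4.01 FPKM in the mouse replicates. It was lower in ferret astrocytes with a log2 difference of -0.52 (95% interval -0.71 to -0.33, limma adjusted p = 2.32e-04), which is under the limit for a call. The difference was smaller with other scalings, at -0.22 (limma adjusted p = 0.0571) after rescaling to the mean library sum and at -0.10 (limma adjusted p = 0.294) after quantile normalization. In neither species was Itpr2 the most abundant IP3 receptor in these cultures.

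Within the 3 IP3 receptors, Itpr3 made up 45.0% and 51.1% of the summed FPKM in ferret replicates 1 and 2 against 9.69% and 8.84% in the mouse replicates. Itpr1 made up 37.0% and 33.1% in the ferret and 71.3% and 74.0% in the mouse libraries. The share of Itpr2, at 17.9% and 15.8% in the ferret and 19.0% and 17.2% in the mouse libraries, overlapped between the species. These shares do not depend on a common scaling of a library, but they do depend on the exon lengths of the gene models. The ratio of Itpr3 to Itpr1 was 1.22 and 1.54 in ferret and 0.136 and 0.120 in mouse astrocytes. The sum of the 3 receptors was 16.1 ± 0.772 FPKM (SD, n = 2) in ferret and 23.8 ± 0.782 FPKM (SD, n = 2) in mouse astrocytes. For Itpr1 and Itpr3 the exact two-sided permutation test of the shares gave p = 0.333, the smallest p that 2 libraries against 2 can give, so that no share could pass a limit of 0.05.

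**Figure D2:**
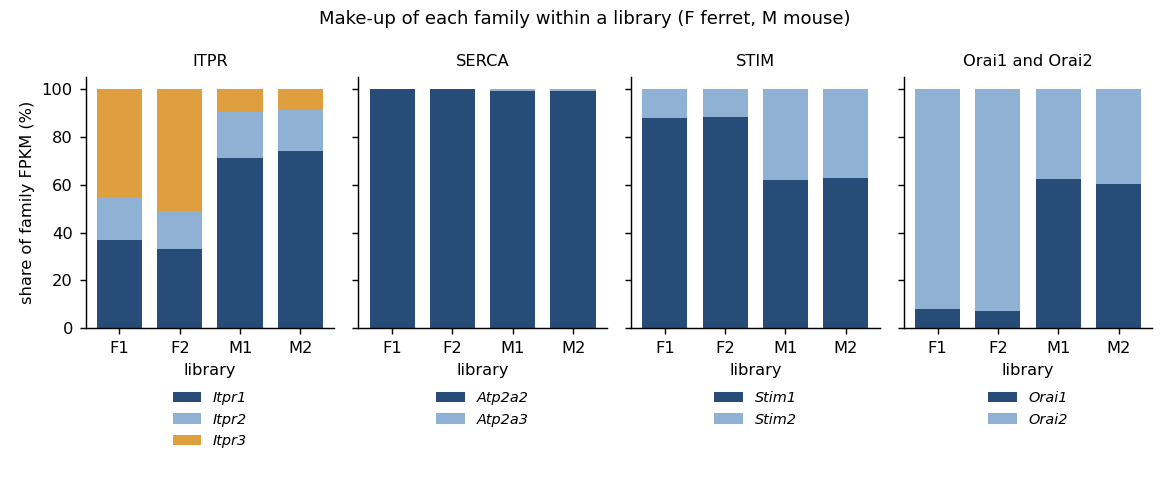
Share of each member in the summed FPKM of its family, in percent, as stacked bars for ferret replicates 1 and 2 (F1, F2) and mouse replicates 1 and 2 (M1, M2), with 1 panel per family. Itpr3 takes the largest part of the IP3 receptors in both ferret libraries and Itpr1 in both mouse libraries. Orai2 exceeds Orai1 in the ferret and Orai1 exceeds Orai2 in the mouse libraries, in a panel that leaves out Orai3, and Atp2a2 fills the pump panel in all 4.

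Ryr3 encodes a ryanodine receptor, a release channel opened by calcium itself, and its mouse gene lies at chr2:112631355-113217096 on the minus strand. Ryr3 had 0.371 and 0.317 FPKM in ferret replicates 1 and 2, against 0.115 and 0.155 FPKM in the mouse replicates. All values were under 1, so the gene was not tested with the others. In a fit without the filter on low values the log2 difference was 0.24 (SE 0.032, limma adjusted p = 0.00641), which is under the limit for a call. Ryr1 and Ryr2, the other ryanodine receptors, reached at most 0.0361 and 0.226 FPKM in any library and were not tested either.

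Of the refill pumps, Atp2a2 stood at a similar deposited FPKM in both species and Atp2a3 was low in both. Atp2a2 encodes SERCA2, the SERCA pump of most tissues, and its mouse gene lies at chr5:122453513-122502225 on the minus strand. Atp2a2 had 91.4 and 96.5 FPKM in ferret replicates 1 and 2, against 94.7 and 98.8 FPKM in the mouse replicates. The libraries of the species overlapped. It was the most abundant of the 10 genes in every library, and between 96.1% and 97.2% of the shared symbols had a lower FPKM. The log2 difference was -0.04 (95% interval -0.18 to 0.09, limma adjusted p = 0.515). This near equality holds for FPKM as deposited. After rescaling to the mean library sum Atp2a2 was higher in ferret astrocytes by a log2 value of 0.35 (limma adjusted p = 1.24e-04), and after quantile normalization by 0.30 (limma adjusted p = 1.61e-04).

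Atp2a3 encodes SERCA3, a pump known from blood cells and some epithelia, and its mouse gene lies at chr11:72961169-72993044 on the plus strand. Atp2a3 had 0.0172 and 0.0202 FPKM in ferret replicates 1 and 2, against 0.588 and 0.776 FPKM in the mouse replicates. The mouse values were higher but under 1, and the gene made up 0.617% and 0.780% of the summed pump FPKM in the mouse libraries and 0.0188% and 0.0209% in the ferret libraries. In the fit without the filter its log2 difference was -0.72 (SE 0.065, limma adjusted p = 0.00255), and it was -2.71 with a pseudocount of 0.1 in that fit, since the size of such low values depends on the pseudocount. Atp2a1, the pump of fast skeletal muscle, reached at most 0.0513 FPKM in any library.

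Of the store sensors, Stim1 stood at a similar FPKM in both species and Stim2 did not. Stim1 encodes the sensor that opens ORAI channels after strong depletion, and its mouse gene lies at chr7:102267806-102437319 on the plus strand. Stim1 had 23.6 and 24.2 FPKM in ferret replicates 1 and 2, against 26.8 and 27.9 FPKM in the mouse replicates. The log2 difference was -0.19 (95% interval -0.32 to -0.05, limma adjusted p = 0.0155), under the limit for a call, and its adjusted p was 0.120 without mouse replicate 2. The direction turned with the scaling, to 0.19 after rescaling to the mean library sum and to 0.20 after quantile normalization.

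Stim2 encodes the sensor that responds to small losses and keeps resting calcium steady, and its mouse gene lies at chr5:53998499-54121057 on the plus strand. Stim2 had 3.27 and 3.14 FPKM in ferret replicates 1 and 2, against 16.3 and 16.4 FPKM in the mouse replicates. The mouse mean was 5.11 times the ferret mean, and the duplicates of each species were nearly equal. The log2 difference was -2.05 (SE 0.069, limma adjusted p = 1.96e-09). Stim2 made up 12.1% and 11.5% of the summed STIM level in ferret replicates 1 and 2 against 37.9% and 37.0% in the mouse replicates. The STIM sum was 27.1 ± 0.311 FPKM (SD, n = 2) in ferret and 43.7 ± 0.898 FPKM (SD, n = 2) in mouse astrocytes.

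The order of Orai1 and Orai2 differed between the species. Orai1 encodes the pore of the main store-operated channel of immune cells, and its mouse gene lies at chr5:123015074-123030456 on the plus strand. Orai1 stood at 2.11 and 2.10 FPKM in the ferret libraries, and 12.8 FPKM in both mouse libraries. The mouse mean was 6.09 times the ferret mean, the largest ratio among the called store genes. The log2 difference was -2.15 (SE 0.071, limma adjusted p = 1.67e-09).

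Orai2 encodes a related pore subunit that forms channels with Orai1 and is known to lower their current, and its mouse gene lies at chr5:136147459-136170713 on the minus strand. Orai2 had 23.6 and 26.9 FPKM in ferret replicates 1 and 2, against 7.74 and 8.51 FPKM in the mouse replicates. Each ferret library was above each mouse library, by 2.77 times between the closest. The log2 difference was 1.52 (SE 0.081, limma adjusted p = 4.70e-08).

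The ratio of Orai2 to Orai1 was 11.2 and 12.8 in ferret replicates 1 and 2 against 0.605 and 0.663 in the mouse replicates. Orai2 thus made up 91.8% and 92.7% of the summed level of this pair in ferret astrocytes, and Orai1 made up 62.3% and 60.1% in mouse astrocytes. The sum of the pair was 27.4 ± 2.33 FPKM (SD, n = 2) in ferret and 20.9 ± 0.576 FPKM (SD, n = 2) in mouse astrocytes. The remaining ORAI gene, Orai3, had 31.5 and 33.8 FPKM in ferret replicates 1 and 2, against 14.7 and 14.3 FPKM in the mouse replicates. It was called higher in ferret astrocytes (log2 difference 1.12, SE 0.064, limma adjusted p = 8.69e-08), and in both species it stood above Orai1 and Orai2.

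**Figure D3:**
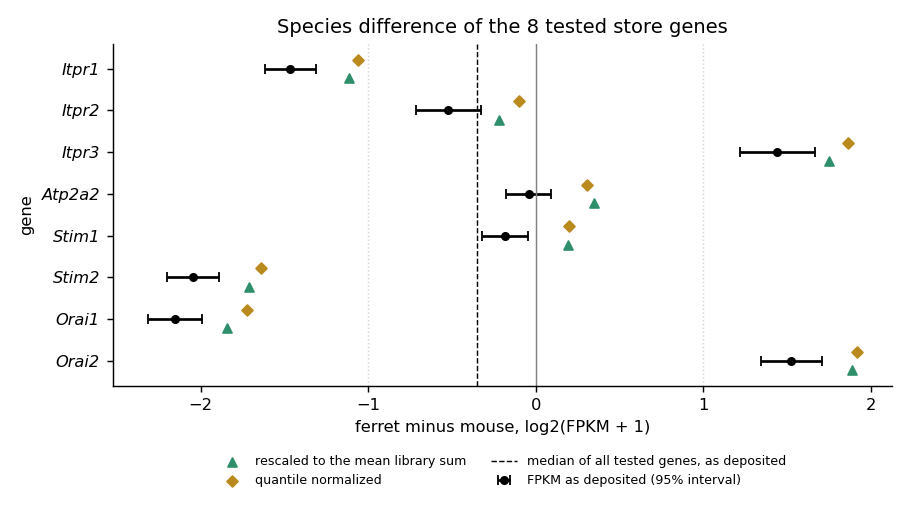
Difference between ferret and mouse astrocytes on the log2(FPKM + 1) scale for the 8 tested store genes, with 95% intervals for FPKM as deposited (black), after rescaling to the mean library sum (green triangles) and after quantile normalization (gold diamonds). The dashed line is the median of all tested genes at -0.35 and the dotted lines mark 1 and -1. Itpr1, Stim2 and Orai1 lie beyond -1 and Itpr3 and Orai2 beyond 1 with all 3 scalings, while Atp2a2 and Stim1 move across 0.

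The level of all genes shifts with the scaling between species. Over all tested genes the log2 differences had a median of -0.35 for FPKM as deposited, -0.01 after rescaling and 0.05 after quantile normalization. Relative to the deposited median, Orai2 stood 1.87 and Itpr3 1.79 above it, Atp2a2 0.31 and Stim1 0.16 above it, and the differences of Itpr2, Itpr1, Stim2 and Orai1 from it were -0.17, -1.12, -1.70 and -1.80. The same 5 genes were called in the same direction with 3 scalings, another pseudocount, no filter, the replicate block and summed values. Summed values were the same input for these genes, which had 1 value per library. The replicate block and the fit without the filter left their log2 differences unchanged. No alternative varied exon length. When each library was left out in turn, their log2 differences kept their direction and stayed beyond 1 or -1. With a library left out, the remaining library of that species was assumed to vary like those of the other species.

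The order of the levels differed between the species. In ferret astrocytes it was Atp2a2, Orai2, Stim1, Itpr3, Itpr1, Stim2, Itpr2, Orai1, Ryr3 and Atp2a3, and the libraries of Orai2 and Stim1 overlapped. In mouse astrocytes it was Atp2a2, Stim1, Itpr1, Stim2, Orai1, Orai2, Itpr2, Itpr3, Atp2a3 and Ryr3, and no neighbours overlapped, although Itpr1 (17.3 ± 0.116 FPKM, SD, n = 2) and Stim2 (16.4 ± 0.057 FPKM, SD, n = 2) were close. FPKM is divided by exon length, and a short or incomplete gene model can move a gene in this order.

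The genes that act around the store were taken from 7 lists of 102 symbols, of which 74 were tested. Of these, 11 were called higher and 31 lower in ferret astrocytes and 32 were not called, which is 14.9% higher and 41.9% lower, against 13.1% and 30.1% of all genes. The median log2 difference of the 74 genes was -0.59. In several lists, genes passed the filter of 1 FPKM only through the species where they were high, which favours a call. The pooled counts are therefore not read as a trait of the pathway. This split moved with the scaling, to 15 higher and 25 lower after quantile normalization and to 16 higher and 28 lower when the shared symbols were rescaled to a sum of 1000000. The calls over all 10204 genes moved too, to 2076 higher and 2090 lower after quantile normalization. They were 2197 higher and 2536 lower after rescaling to 1000000.

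For the making and breaking of IP3, 4 of 18 tested genes were called higher and 6 lower, against 13.1% and 30.1% of all genes. Among the lower ones, Plcd4, Plcb4, Plcg2 and Impa2 passed the filter of 1 FPKM only through the mouse libraries, which favours a call. The delta class of phospholipase C, which is activated by calcium, moved in both directions. Plcd3 had 120 ± 4.39 FPKM (SD, n = 2) in ferret and 6.69 ± 0.337 FPKM (SD, n = 2) in mouse astrocytes, which differed in log2 units by 3.98 (limma adjusted p = 2.92e-11). Plcd1 stood at 124 ± 8.19 and 16.1 ± 0.502 FPKM (SD, n = 2 each), a log2 difference of 2.86 (limma adjusted p = 1.74e-10). In contrast, Plcd4 stood at 0.715 ± 0.080 and 42.9 ± 1.46 FPKM (SD, n = 2 each), a log2 difference of -4.68 (limma adjusted p = 2.67e-11). Gna14, an alpha subunit of the Gq class, stood at 1.35 ± 0.072 and 10.2 ± 0.251 FPKM (SD, n = 2 each), a log2 difference of -2.25 (limma adjusted p = 1.78e-09). Of the 18 genes 8 were not called, among them Gnaq (log2 difference -0.08) and Plcb3 (-0.09), whose adjusted p-values by limma were 0.260 and 0.347. Both turned to higher in ferret astrocytes after quantile normalization (0.30 each).

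Of the other store channels and pumps, 1 of 5 tested genes was called higher, Orai3, and 1 lower. The lower gene was Tmco1, which encodes a channel that lets calcium leak from an overfull store, with 22.5 ± 1.41 FPKM (SD, n = 2) in ferret and 99.3 ± 3.24 FPKM (SD, n = 2) in mouse astrocytes (log2 difference -2.09, limma adjusted p = 1.08e-09). Of 15 tested regulators of release, refill and entry, 1 was called higher and 7 lower. For both lists, the shares over all genes were 13.1% higher and 30.1% lower. With the 3 other scalings, 2 of the channels and pumps were called higher and 1 lower. Of the regulators, 2 were then called higher and 5 or 6 lower. Over all 10204 genes, these scalings called between 1954 and 2197 higher and between 2090 and 2536 lower. The lower regulators Cracr2b, Lrmp, Mrvi1 and Jph2 passed the filter of 1 FPKM only through the mouse libraries, which favours a call. Erlin2, which takes part in the breakdown of active IP3 receptors, stood at 16.7 ± 0.982 and 101.3 ± 0.859 FPKM (SD, n = 2 each), a log2 difference of -2.53 (limma adjusted p = 2.68e-10). Cracr2b, Lrmp and Mrvi1, whose products bind the entry channel complex (Cracr2b) or IP3 receptors, had log2 differences of -2.30, -2.08 and -1.73 and ferret means of 0.271, 0.149 and 0.507 FPKM.

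The calcium-binding proteins of the store had 8 of 15 tested genes called lower in ferret astrocytes and 1 higher, against 30.1% and 13.1% of all genes. Among the lower ones, Casq1, Calr3 and Casq2 passed the filter of 1 FPKM only through the mouse libraries, which favours a call. The higher one, Hrc, passed it only through the ferret libraries. After rescaling to the mean library sum and after quantile normalization 6 were called lower, since Hsp90b1 and Calu no longer passed the limit of 1. Over all 10204 genes, 2215 and 2090 were called lower with these scalings. Rcn3, a reticulocalbin of the secretory pathway, had 1.37 ± 0.146 FPKM (SD, n = 2) in ferret and 99.3 ± 1.23 FPKM (SD, n = 2) in mouse astrocytes, which differed in log2 units by -5.41 (limma adjusted p = 8.89e-12). Casq1, the calsequestrin of skeletal muscle, stood at 0.930 ± 0.090 and 27.6 ± 0.114 FPKM (SD, n = 2 each), a log2 difference of -3.89 (limma adjusted p = 5.98e-11). Calr3 and Rcn2 had log2 differences of -2.24 and -1.64. The abundant calreticulin gene Calr was not called, at 440 ± 16.3 and 632 ± 3.90 FPKM (SD, n = 2 each).

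All 8 tested plasma membrane pumps and exchangers were called for FPKM as deposited, 3 higher and 5 lower, against 43.2% of all genes. Several of them, among them Slc8a1, Slc8a2 and Atp2b3, passed the filter of 1 FPKM only through the species where they were high. The filter thus favoured calls in this list, and the count is not read as a trait of it. Slc8a2 was under the limit after rescaling to the mean library sum (-0.96) and after quantile normalization (-0.86), which left 4 called lower. These proteins move calcium out of the cell. Atp2b4 had 57.1 ± 3.97 FPKM (SD, n = 2) in ferret and 14.0 ± 0.391 FPKM (SD, n = 2) in mouse astrocytes, which differed in log2 units by 1.96 (limma adjusted p = 2.29e-09). Atp2b1 differed the other way, at 5.21 ± 0.480 and 23.5 ± 1.37 FPKM (SD, n = 2 each), a log2 difference of -1.98 (limma adjusted p = 6.09e-09). Atp2b3 stood at 4.41 ± 0.098 and 0.0162 ± 0.00050 FPKM (SD, n = 2 each), with a log2 difference of 2.41. The sodium-calcium exchanger gene Slc8a1 stood at 0.599 ± 0.018 and 8.83 ± 0.290 FPKM (SD, n = 2 each), with a log2 difference of -2.62. As in the ORAI and IP3 receptor families, members of the Atp2b family were thus called in opposite directions.

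Of 9 tested genes of mitochondrial calcium uptake, 1 was called higher and 2 lower, against 13.1% and 30.1% of all genes. Mcub, which encodes an inhibitory subunit of the uniporter, had 8.40 ± 0.165 FPKM (SD, n = 2) in ferret and 1.19 ± 0.619 FPKM (SD, n = 2) in mouse astrocytes, which differed in log2 units by 2.13 (limma adjusted p = 5.19e-07). Vdac2, a channel of the outer membrane, had a log2 difference of -1.91 (limma adjusted p = 8.33e-10). The pore gene Mcu was not called, at 7.56 ± 0.245 and 10.6 ± 0.483 FPKM (SD, n = 2 each).

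**Figure D4:**
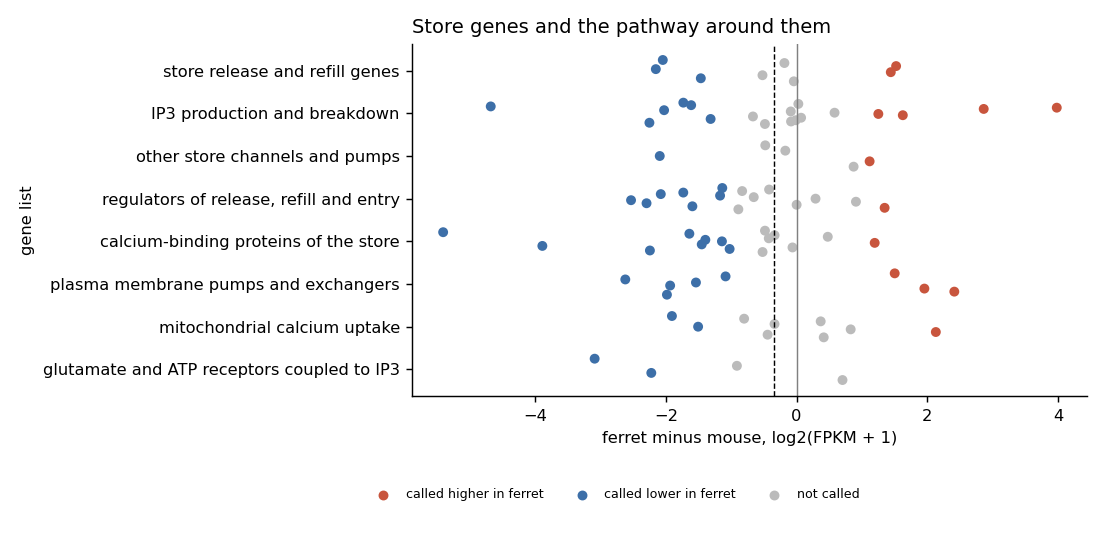
Difference between ferret and mouse astrocytes on the log2(FPKM + 1) scale for each tested gene of the store set and of the 7 lists around it, with 1 point per gene, red where called higher in ferret astrocytes, blue where called lower and grey where not called. The dashed line is the median of all tested genes at -0.35. Every list holds genes on both sides, and calls in both directions appear in all rows but that of the receptors.

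The receptors that lead from glutamate and ATP to IP3 comprised 6 genes, of which 4 were tested, 2 called lower and 0 higher. Over all genes, 30.1% were called lower and 13.1% higher. P2ry1, an ATP and ADP receptor, had 1.44 and 1.37 FPKM in ferret replicates 1 and 2, against 9.57 and 10.9 FPKM in the mouse replicates, and was called lower (log2 difference -2.22, limma adjusted p = 4.13e-09). P2ry2, an ATP and UTP receptor, had 1.67 and 1.39 FPKM in the ferret and 3.67 and 3.85 FPKM in the mouse libraries and was not called (log2 difference -0.91). P2ry6, a UDP receptor, was listed at 0 in both ferret libraries and had 7.74 and 7.29 FPKM in the mouse libraries. It was the other gene called lower and passed the filter of 1 FPKM only through the mouse libraries, which favours a call. The glutamate receptor gene Grm5 was the only one of the list with a higher mean in ferret astrocytes, and its mouse mean was under 1 FPKM. It was not called as deposited (log2 difference 0.70) or after rescaling to the mean library sum (0.87). Calls came after quantile normalization (1.00), after rescaling to a sum of 1000000 (1.51) and with a pseudocount of 0.1 (1.51). P2ry4 was listed at 0 in both ferret libraries and reached at most 0.0138 FPKM in the mouse libraries.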

How the data were processed

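Libraries of polyA-selected RNA from ferret (n = 2) and mouse astrocytes (n = 2) were analysed. The authors aligned reads with STAR 2.7.0f to the Ensembl genome of each species and deposited FPKM per gene from Cufflinks 2.2.1. FPKM is divided by the exon length of each species' own gene models, which enters every difference between species. The files analysed hold no read counts, and those listed by the study were not used here, so low values carry no interval.

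Symbols were matched in upper case. Where a symbol had more than 1 value (7 ferret and 13 mouse symbols), the one with the highest mean was taken. The values were set to log2(FPKM + 1) and fitted with limma 3.58.1 (R 4.3.3, trended empirical Bayes) over the 10204 genes whose mean reached 1 FPKM in either species, and p-values were adjusted over all of them. On simulated data for this comparison with 200 genes changed by a log2 value of 1.5, 98% were recovered, with 3 false calls. The simulation took its spread from the duplicates and held no shift of the remaining genes between species. In the data 43.2% of the genes were called, so the number of false calls does not carry over to them. Alternatives were a pseudocount of 0.1, no filter, 3 scalings, summed values, the replicate block and each library left out.

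The members and lists were chosen with earlier results of these data known. All 10 members are named, with the called genes of each list up to the 4 largest differences and the measured receptors, except a few items that are not reported here. Named after their values were seen were Calr, Calu, Hsp90b1, Slc8a2, Gfap, Gnaq, Mcu, Plcb3, Ryr1, Ryr2 and Atp2a1. So were Casq2, Hrc, Impa2, Jph2, Plcb4, Plcg2, Map2, Syt1, Gad1 and Dcx. Listed genes measured in 1 species only were not analysed. Mouse coordinates are those of GENCODE M21 on GRCm38, the authors' mouse build.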

Additional observations from a re-analysis of the deposited data

How the results depend on the processing

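The 5 called store genes kept their call and direction under the alternatives that kept all 4 libraries. Of these, summed values, no filter and the replicate block could not change their log2 differences, and none varied exon length. When each library was left out in turn the direction held. In those fits a species was left with 1 library, and the spread came from the other species. A further pair, Atp2a2 and Stim1, turned direction with the scaling between species. Atp2a2 moved from a log2 difference of -0.04 to 0.35 with the shared symbols rescaled to a sum of 1000000, to 0.35 after rescaling to the mean library sum and to 0.30 after quantile normalization, and Stim1 moved from -0.19 to 0.20, 0.19 and 0.20. The difference in the share of Stim2, -25.6 percentage points, was -24.8 points after quantile normalization. In the fit without the filter Atp2a3 was past the limit of 1 at -2.71 with a pseudocount of 0.1 and at -1.58 after rescaling to 1000000. With the replicate block 2 store genes were called higher and 3 lower, and 11 and 31 genes of the lists, as without it. The duplicates share numbers across species by label alone, and their deviations from the group means correlated by 0.0099 across genes, with 2 pairs. Over all genes, 1336 were called higher and 3069 lower as deposited, against 2197 and 2536 after rescaling to 1000000. With each library left out, between 30 and 31 list genes were called lower. Genes under 1 FPKM in both species were outside the main test.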
